A study of Mus musculus with 24 samples.

Results

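Tetraspanin genes encode a family of proteins that cross the membrane 4 times. Their genes were followed here in LSK-SLAM cells, the Lin-Sca-1+c-Kit+CD48-CD150+ bone marrow fraction that is enriched for haematopoietic stem cells, of young and old mice. The family was chosen from 1 measured difference, the higher read count of *Cd53* in old cells, and its members were then taken by gene symbol alone (every *Tspan* gene with a number, and *Cd9*, *Cd37*, *Cd53*, *Cd63*, *Cd81*, *Cd82*, *Cd151*, *Upk1a*, *Upk1b*, *Prph2* and *Rom1*). This gave 28 of the 18762 genes analysed here. *Tspan13*, *Tspan14* and *Upk1b* were not analysed here. The question put to the data was whether the rise of *Cd53* with age is shared by the rest of the family.

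All mice were C57BL/6 animals of Wt genotype without treatment in the labels, 5 young and 7 old. By the labels the young mice were 4 to 5 months old and the old mice 20 to 22 months, while the paper's text gives other ages for them. RNA of 15000 sorted cells per mouse was depleted of ribosomal RNA, and 300 pg entered a library kit for small amounts of RNA. The 24 labelled samples are 2 for each of the 12 mice, and each mouse has 1 column of normalized read counts, which are reads per gene scaled to the library. Recovered reads per mouse numbered 2.05 to 5.12 M in young and 0.861 to 5.00 M in old mice, where M stands for 1000000. A gene without reads was given a limit of 3 reads, which is 0.583 to 3.69 normalized read counts depending on the mouse. Each label ends in the letter A or B, whose meaning the sources used here do not give, and all mice of letter A (2 young and 4 old, 0.861 to 3.11 M reads) had fewer reads than all mice of letter B (3 young and 3 old, 3.23 to 5.12 M reads). Values are therefore also given within each letter. The genes of the sorting gate were detected in every mouse, and *Kit* had 1572 ± 336 (SD, n = 5) for young mice and 1462 ± 571 (SD, n = 7) for old mice. *Cd48*, whose protein the gate excludes, ranged from 5.10 to 9.99 in young and 0.583 to 11.8 in old mice. These are bulk samples of sorted cells, so that a change in the share of cells that express a gene cannot be told apart from a change in RNA per cell.

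Tetraspanins act mainly through other proteins. They bind integrins, immunoglobulin-superfamily proteins, the sheddase ADAM10 and each other, and gather them in patches of the plasma membrane or carry them through endosomes. Several are used as surface markers of blood cells: CD53 and CD37 are found mainly on leukocytes, whereas CD9, CD63, CD81 and CD151 are found on many cell types. In the haematopoietic system members take part in adhesion, in signalling of lymphocytes and in platelet function.

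Before the values, the start regions of the 4 members known from leukocytes are shown, because *Cd53* is one of them and the other members share its known expression in blood cells. Sequences were taken from RefSeq for build GRCm38.p6 and cover 250 bases before to 50 bases after an annotated start site, written 5′ to 3′ on the strand of the gene. Of the 28 members, 27 had at least 1 such window, with 36 windows in all, and *Tspan18* had none. Capitals mark GAGGAA, the core of the sites bound by PU.1, an ETS-family factor of blood cells, or its reverse complement TTCCTC. The window of *Cd53* is chr3:106790100-106790399 on the minus strand, that of *Cd37* chr7:45238790-45239089 on the minus strand, that of *Cd82* chr2:93461802-93462101 on the minus strand and that of *Tspan32* chr7:143004796-143005095 on the plus strand. For *Cd82* the table holds 4 windows, and the one shown is the only one with a match.

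Cd53: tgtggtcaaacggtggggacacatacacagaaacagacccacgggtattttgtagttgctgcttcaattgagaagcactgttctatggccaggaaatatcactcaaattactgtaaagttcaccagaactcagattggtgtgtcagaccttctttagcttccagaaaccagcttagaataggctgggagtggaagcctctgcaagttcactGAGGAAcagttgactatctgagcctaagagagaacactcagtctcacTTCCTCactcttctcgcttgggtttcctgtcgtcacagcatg

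Cd37: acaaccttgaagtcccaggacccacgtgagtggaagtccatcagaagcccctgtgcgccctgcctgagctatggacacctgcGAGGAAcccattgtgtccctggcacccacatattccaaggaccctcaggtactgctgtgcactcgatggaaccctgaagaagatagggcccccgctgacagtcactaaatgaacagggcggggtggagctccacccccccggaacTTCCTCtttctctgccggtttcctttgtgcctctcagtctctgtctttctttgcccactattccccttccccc

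Cd82: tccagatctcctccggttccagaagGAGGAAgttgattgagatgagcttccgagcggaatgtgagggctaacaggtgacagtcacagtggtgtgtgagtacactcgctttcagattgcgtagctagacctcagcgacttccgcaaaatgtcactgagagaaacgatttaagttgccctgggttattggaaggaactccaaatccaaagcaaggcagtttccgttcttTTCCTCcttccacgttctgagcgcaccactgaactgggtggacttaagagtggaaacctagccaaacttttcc

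Tspan32: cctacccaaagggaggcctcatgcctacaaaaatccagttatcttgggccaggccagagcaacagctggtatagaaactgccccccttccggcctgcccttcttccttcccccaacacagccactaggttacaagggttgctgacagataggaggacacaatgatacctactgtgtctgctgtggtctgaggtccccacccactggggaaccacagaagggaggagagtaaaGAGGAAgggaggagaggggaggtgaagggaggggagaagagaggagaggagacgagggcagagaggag

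In *Cd53* the matches begin at -39 and 9 relative to the start site, in *Cd37* at -168 and -23, in *Cd82* at -225 and -23, and in *Tspan32* at -18. The same letters occur in 28.3% of all 32851 windows and in 8 of the 36 windows of the family (22.2%), among them those of *Cd63*, *Tspan31* and *Tspan6* and 1 window of *Tspan9*. The match is thus shared by *Cd53* and by members that were not called between the ages, and it is a description of letters only. The windows shown held 4 CpG dinucleotides in *Cd53*, 2 in *Tspan32*, 8 in *Cd37* and 11 in *Cd82*, beside 23 in the window of *Cd81* and a median of 7 over all windows.

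*Cd53* (chr3:106759921-106790149 in GRCm38, minus strand) overlaps no exon of another gene and shares no 50-base word with another annotated transcript. Its normalized read counts in young mice 1 to 5 were 12.1, 8.65, 6.87, 14.1 and 34.1. In old mice 1 to 7 they were 98.1, 88.05, 53.5, 85.5, 39.5, 112 and 57.8. Every old mouse lay above every young mouse, and the closest were young mouse 5 at 34.1 and old mouse 5 at 39.5. These counts rest on 18 to 116 recovered reads in young and 47 to 440 in old mice. The means were 15.2 ± 10.95 (SD, n = 5) for young mice and 76.3 ± 26.4 (SD, n = 7) for old mice. This is a log2 fold change of 2.39 with a standard error of 0.34, computed on log2(normalized read count + 1) with limma, which fits a linear model to each gene and shares the estimate of the variance between genes. The difference is given without a test, since it chose the family. It was 2.67 within letter A and 2.22 within letter B, and between 2.18 and 2.72 in fits without 1 of the mice, with the highest value without young mouse 5.

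CD53 protein is carried by most white blood cells, and so the lists of markers of other cells are given beside it. The neutrophil and myeloid list had 10 of its 11 genes in the table, with summed normalized read counts of 340.4 to 1086 in young and 334 to 4596 in old mice. Of its 9 tested genes 8 had a positive log2 fold change, beside 47.7% of all genes tested. None of the 9 was called by limma, and 0 had an unadjusted p under 0.05, beside 3.95% of all genes tested. The highest sum was that of old mouse 6, and without this mouse the log2 fold change of *Cd53* was 2.29. The monocyte and macrophage list had 6 of 7 genes, summed to 44.9 to 125 in young and 29.75 to 188 in old mice, and 3 of its 4 tested genes were positive. The B cell list had 7 of 9 genes, summed to 319 to 497 and 296 to 699.7, and 4 of its 5 tested genes were positive. The T and NK cell list had 7 of 9 genes, summed to 31.2 to 82.55 and 25.5 to 132, and *Cd3e*, *Cd2* and *Ncr1* had no read in at least 1 mouse. By contrast, the 4 pan-leukocyte genes *Ptprc*, *Coro1a*, *Laptm5* and *Cd52* summed to 853 to 1449 in young and 561 to 1348 in old mice, and none of the 3 tested ones was positive.

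Progenitor and other blood lineage genes were listed in the same way. The list of genes of the excluded or progenitor cells (*Cd48*, *Cd34* and *Flt3*) had sums that did not overlap between the ages, at 167 to 293 in young and 98.0 to 139 in old mice. Single genes without overlap were 0.461% of all genes tested, and each of these 3 genes by itself did overlap. The largest part of the sum was *Cd34*, at 99.5 to 224.5 in young and 69.4 to 104 in old mice. *Cd34*, a surface marker of progenitors, had a log2 fold change of -1.04 (limma adjusted p = 0.0544), and *Flt3*, a receptor of multipotent and lymphoid progenitors, had -0.87, both at an unadjusted p under 0.05 and neither called. Of the 8 erythroid genes 7 had a positive log2 fold change, with 0 at an unadjusted p under 0.05, and the highest of their sums (128 to 253.5 in young and 86.0 to 779 in old mice) was that of old mouse 6. The megakaryocyte and platelet list had 6 of 7 genes, summed to 374 to 599 in young and 412 to 919 in old mice, and 4 of its 5 tested genes were positive, with 2 of the 5 at an unadjusted p under 0.05. *Vwf*, which encodes von Willebrand factor, had a log2 fold change of 0.77 and was higher in 6 of 7 old mice than in every young mouse, whereas *Pf4*, which encodes platelet factor 4, had -1.33. The endothelial list had 4 of 5 genes, summed to 196 to 242 and 183 to 283, with 1 of its 4 tested genes at an unadjusted p under 0.05. None of the genes in these lists was called by limma, beside 0.105% of all genes tested. Over all genes tested 3.95% had an unadjusted p under 0.05, and 47.7% had a positive log2 fold change. The part of other cells in the *Cd53* difference was not tested.

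Of the other 27 members, 22 passed the minimum mean of 10 normalized read counts over all mice and entered the comparison of old and young mice across 12354 genes. None of these 22 was called higher or lower at a Benjamini-Hochberg adjusted p under 0.05 by limma, beside 13 of all genes tested (0.105%). At an unadjusted p under 0.05 the number was 1 of 22, beside 3.95% of all genes, and it was *Cd37*, which was lower in old mice. The quasi-likelihood test of edgeR on the recovered reads also called 0 of the 22, beside 0.146% of all genes. DESeq2 gave an adjusted p for 14 of the 22 and called 0 of these, beside 0.633% of the 9001 genes with one. At an unadjusted p under 0.05 there was 1 of the 22 in each of these 2 tests. With the label letter as a covariate limma called 0 of 22, beside 0.299% of all genes, with 2 at an unadjusted p under 0.05, beside 5.2%. These 2 were *Cd37*, lower in old mice, and *Cd63*, higher in old mice. The log2 fold changes of the 22 ran from -0.52 to 0.65, 11 of them positive and 11 negative. Their median was 0.00, against -0.02 over all genes tested. With the letter as a covariate 8 were positive and 14 negative, with a median of -0.06 against -0.05 over all genes tested. *Tspan12*, *Tspan7* and *Prph2*, all positive without the letter, had young means of 9.93, 9.875 and 8.49. They passed the minimum mean of 10 only through the old mice, so that their signs are partly set by that choice.

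**Figure D1:**
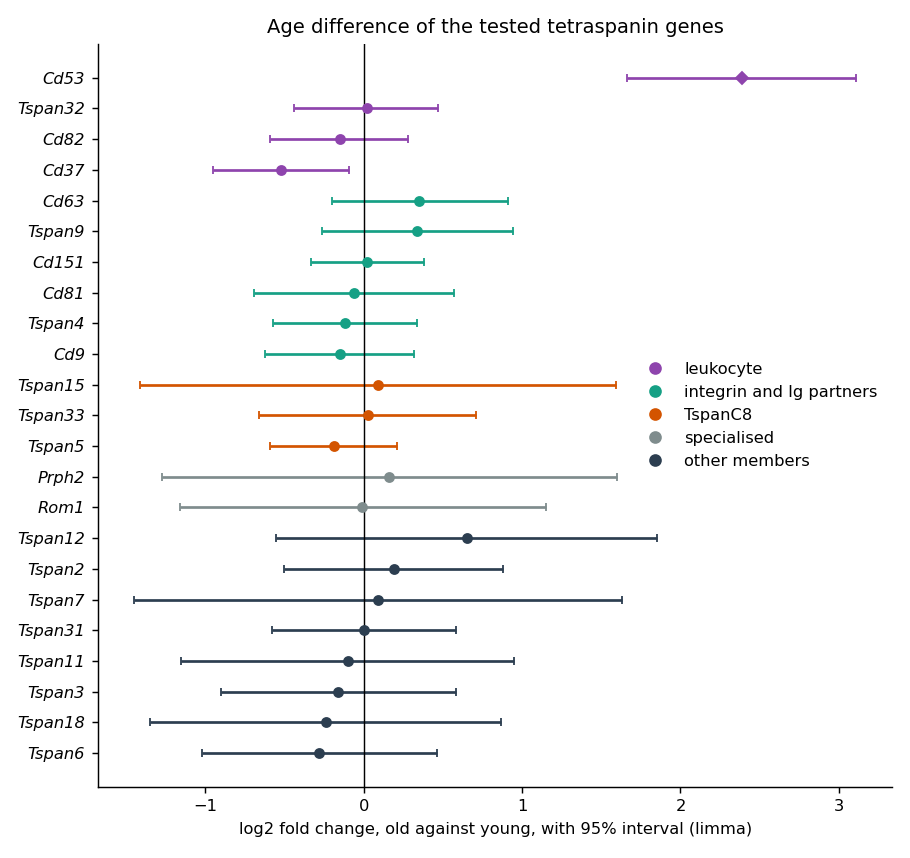
Log2 fold change of each tested tetraspanin gene, old against young mice (horizontal axis, limma), grouped by role, with the 95% interval as a bar and *Cd53* as a diamond. *Cd53* sits at 2.39 and the other 22 members lie between -0.52 and 0.65. The rise of *Cd53* chose the family, so its bar is not a test.

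Each 95% interval holds for a single gene on the scale of log2(normalized read count + 1), without adjustment for the number of genes. This scale understates the fold changes of low genes. For 17 of the 22 members the upper end of the 95% interval was under 1, the value of a doubling. For the other 5, all with low counts, it reached from 1.15 in *Rom1* to 1.85 in *Tspan12*. Lower ends passed the value of a halving in *Tspan6*, *Tspan11*, *Rom1*, *Prph2*, *Tspan18*, *Tspan15* and *Tspan7*, from -1.02 in *Tspan6* to -1.45 in *Tspan7*. With the letter as a covariate *Tspan12* alone had an upper end of at least 1, at 1.60. The log2 fold change of *Cd53* chose the family, so the intervals are not measured against it. Within letter A alone the upper end of *Tspan12* was 2.53. No other member had young and old values without overlap, as 57 of the 12354 genes had (0.461%). Summed over the family without *Cd53*, normalized read counts ranged from 1198 to 1331 (median 1263) in young and from 976 to 1473 (median 1261) in old mice.

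Among the leukocyte members, *Cd37* had counts below those of the young mice in most old mice, *Cd82* and *Tspan32* overlapped widely, and *Cd53* alone was higher in every old mouse. *Cd37*, a tetraspanin of mature B cells above all, had 68.4, 64.4, 57.3, 97.9 and 57.9 normalized read counts in young mice 1 to 5. In old mice 1 to 7 it had 36.6, 39.7, 54.2, 50.9, 45.0, 69.4 and 40.6. Of the 7 old mice 6 lay under the lowest young mouse, and old mouse 6 lay within the young range. The means were 69.2 ± 16.7 (SD, n = 5) for young mice and 48.1 ± 11.3 (SD, n = 7) for old mice. Their log2 fold change was -0.52 (standard error 0.21, 95% interval -0.95 to -0.09). Its limma adjusted p was 0.999, so that it was not called. The log2 fold change was -0.51 within letter A and -0.51 within letter B, and between -0.61 and -0.39 when single mice were left out, the latter without young mouse 4, which was high at 97.9.

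*Cd82* encodes a binding partner of integrins that is known as a suppressor of metastasis. Its counts in young mice were 52.3, 75.5, 64.75, 72.8 and 67.0, and in old mice the lowest, median and highest were 32.4, 61.4 and 73.8. Only old mouse 5 stood under the young range. The log2 fold change was -0.15 (standard error 0.21, 95% interval -0.59 to 0.28), and -0.01 without old mouse 5. *Tspan32*, expressed mainly in blood cells, had 90.5, 85.6, 108, 129 and 76.4 in young mice and 62.35, 114 and 139 as the lowest, median and highest in old mice. The ages overlapped, and the log2 fold change was 0.02 (standard error 0.22, 95% interval -0.44 to 0.47).

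**Figure D2:**
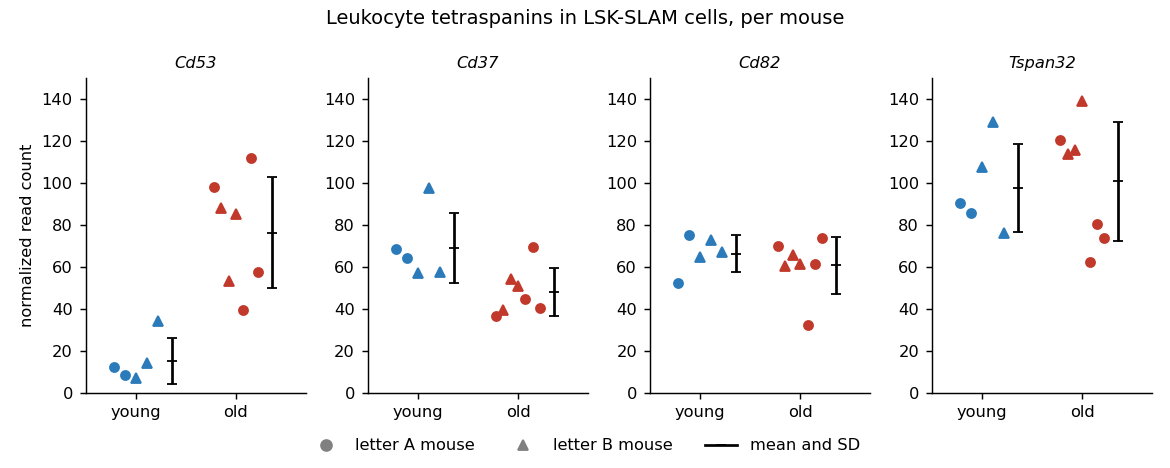
Normalized read counts (vertical axis) of the 4 leukocyte tetraspanin genes in each young (blue) and old (red) mouse, with circles for letter A, triangles for letter B, and the mean with its SD as a black bar. *Cd53* lies between 6.87 and 34.1 in young and 39.5 and 112 in old mice, whereas the ages overlap for *Cd37*, *Cd82* and *Tspan32*.

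The 6 widely expressed partners of integrins and immunoglobulin-superfamily proteins included the genes with the highest levels, and none of them was called. Their log2 fold changes ran from -0.15 to 0.35 with a median of -0.02. *Cd81*, which is expressed on many cell types, had 272, 184, 278, 297 and 275 normalized read counts in young mice. In old mice the lowest, median and highest were 93.1, 313 and 409.5. Old mouse 5 lay lowest and old mouse 1 highest, so that the old mice spread to both sides of the young ones, and the log2 fold change was -0.06 (standard error 0.30, 95% interval -0.69 to 0.57). Without old mouse 5, the second shallowest library, it was 0.17.

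*Cd9*, a marker of platelets and other cells, had 114.5, 75.5, 109.5, 107 and 121 in young mice. In old mice the lowest, median and highest were 56.6, 103 and 135, with old mice 5 and 7, the 2 with the fewest reads, under all young mice. Its log2 fold change was -0.15 (standard error 0.22, 95% interval -0.62 to 0.32), and 0.11 with neither of these libraries. *Cd63*, a protein of late endosomes, lysosomes and secreted vesicles, had 65.0, 27.9, 54.55, 75.9 and 73.45 in young mice and 47.0, 75.0 and 108 as the lowest, median and highest in old mice. Young mouse 2 was the lowest of all, and 3 old mice lay above the young range. The log2 fold change of *Cd63* was 0.35 (standard error 0.26, 95% interval -0.20 to 0.91, limma adjusted p = 0.9997), and 0.11 without young mouse 2. With the letter as a covariate it was 0.47 (standard error 0.21, 95% interval 0.04 to 0.90). The limma p was then 0.034 unadjusted and 0.863 adjusted, so that *Cd63* was not called. Within letter A the log2 fold change was 0.44 (95% interval -0.35 to 1.24), and within letter B 0.49 (95% interval 0.05 to 0.92). Of the 50-base words of *Cd63*, 11.1% occur in other annotated transcripts, among them a pseudogene, so part of its reads is uncertain.

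*Cd151*, which binds laminin-binding integrins, varied least in relation to its mean, with 53.7 ± 6.43 (SD, n = 5) for young mice and 54.6 ± 5.83 (SD, n = 7) for old mice. Its log2 fold change was 0.02 (standard error 0.17, 95% interval -0.33 to 0.38). *Tspan4*, a component of the migrasomes that moving cells leave behind, ranged from 56.9 to 98.9 in young and 44.2 to 94.5 in old mice and shares 10.9% of its words with *Chid1* on the opposite strand. *Tspan9*, a platelet tetraspanin, had 24.6, 32.7, 15.9, 15.3 and 21.7 in young and 18.0, 27.4 and 44.2 as the lowest, median and highest in old mice. It was 0.14 within letter A and 0.33 within letter B on the log2 scale, positive in both, and 0.34 (standard error 0.28, 95% interval -0.26 to 0.94) over all mice. Besides *Cd53*, the members with positive values in both letters were *Cd63*, *Tspan9*, *Tspan12* and *Cd151*, the last with 0.08 and 0.00.

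TspanC8 members carry the sheddase ADAM10 out of the endoplasmic reticulum and influence which proteins it cuts. Of 5 such genes in the table *Tspan5*, *Tspan15* and *Tspan33* were tested and none was called, with log2 fold changes from -0.19 to 0.09. *Tspan5* had 80.25, 89.4, 55.9, 54.2 and 70.8 in young mice and 47.0, 59.7 and 77.35 as the lowest, median and highest in old mice, and its log2 fold change was -0.19 (standard error 0.19, 95% interval -0.59 to 0.21). It was -0.34 within letter A and -0.18 within letter B, negative in both and within the spread. *Tspan33*, known from erythroid and B cells, ranged from 11.4 to 23.3 in young and 11.1 to 30.7 in old mice with a log2 fold change of 0.03. *Tspan15* ranged from 2.355 to 20.6 in young and 0.778 to 28.3 in old mice, and its sign differed between the letters, at 0.42 within letter A and -0.80 within letter B. *Tspan17* (3.525 to 11.5 in young and 2.61 to 22.1 in old mice) and *Tspan10* (0.881 to 13.5 in young and 0 to 16.7 in old mice) lay under the minimum mean and were not tested. *Tspan10* had 0 reads in old mouse 3, where 3 reads would be 0.979 normalized read counts. *Adam10* itself had 288 ± 84.0 (SD, n = 5) for young mice and 322 ± 112 (SD, n = 7) for old mice, and its log2 fold change was 0.10 (standard error 0.29).

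Specialised members were present at low counts. *Prph2* and *Rom1* form the rims of photoreceptor discs, *Upk1a* belongs to the plaques of the bladder surface, and *Tspan1* and *Tspan8* are known from epithelia. *Prph2* ranged from 3.14 to 15.4 in young and 0.778 to 22.1 in old mice, and its log2 fold change was 0.16 (standard error 0.68, 95% interval -1.27 to 1.60). *Rom1* ranged from 3.73 to 23.1 in young and 4.97 to 20.9 in old mice, with -0.01 (standard error 0.55, 95% interval -1.16 to 1.15), and gave -0.87 within letter A and 0.54 within letter B. Neither was called. *Upk1a* (4.51 to 14.9 in young and 0.583 to 16.3 in old mice), *Tspan1* (1.77 to 21.15 in young and 0.389 to 20.5 in old mice) and *Tspan8* (5.10 to 12.3 in young and 3.795 to 15.99 in old mice) were not tested. These low counts are 2 to 51 recovered reads per mouse.

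The 8 remaining members had log2 fold changes from -0.28 to 0.65, and none was called. *Tspan12*, an activator of norrin and Frizzled signalling in retinal vessels, had 3.73, 12.5, 7.06, 2.55 and 23.8 in young mice. In old mice the lowest, median and highest were 4.47, 11.4 and 32.0, with the highest in old mouse 7, the shallowest library. Its mean was 9.93 in young and 14.2 in old mice, so that it passed the minimum mean of 10 only through the old mice. Its log2 fold change of 0.65 (standard error 0.57, 95% interval -0.55 to 1.85) was the highest after *Cd53*, a rank partly set by that choice. The log2 fold change was 1.17 within letter A and 0.03 within letter B. Leaving out single mice gave 0.34 to 1.04, and with neither of the 2 shallowest libraries it was 0.30. *Tspan2*, known from oligodendrocytes, had 50.4, 34.6, 15.1, 37.5 and 35.8 in young mice and 18.3, 32.6 and 60.4 as the lowest, median and highest in old mice. The log2 fold change was 0.19 (standard error 0.33, 95% interval -0.50 to 0.88). *Tspan3* had 164, 82.7, 198, 121 and 134 in young mice and 33.9, 125 and 196 as the lowest, median and highest in old mice, where old mouse 5 stood far under the rest. Its log2 fold change was -0.16 (standard error 0.35, 95% interval -0.90 to 0.58), and 0.14 without old mouse 5.

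*Tspan31* ranged from 36.5 to 73.0 in young and 35.5 to 102 in old mice and gave 0.00 on the log2 scale (standard error 0.28), but 26.5% of its 50-base words occur in other transcripts, mainly those of *Cdk4*, which overlaps 29.2% of its exon length on the opposite strand. *Tspan6* on the X chromosome ranged from 18.8 to 29.55 in young and 9.84 to 43.4 in old mice, with 4 of the 7 old mice under the young range and -0.28 (standard error 0.35, 95% interval -1.02 to 0.46) on the log2 scale. *Tspan7*, also on the X chromosome and known from neurons, ranged from 4.11 to 22.1 in young and 0.778 to 33.9 in old mice with 0.09 (standard error 0.73). *Tspan11* (8.24 to 39.4 in young and 3.89 to 30.8 in old mice) and *Tspan18* (5.49 to 35.1 in young and 3.50 to 25.8 in old mice) had -0.10 (standard error 0.50) and -0.24 (standard error 0.53).

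Levels were compared between genes only after division by exon length, as normalized read counts per kb. *Cd81* came first with 92.6 ± 29.2 per kb (SD, n = 12), followed by *Cd9* with 49.5 ± 11.8 (SD, n = 12) and *Tspan4* with 32.9 ± 8.12 (SD, n = 12). Of the 27 pairs of neighbours in this order, 3 differed by more than the larger of their SDs. They were *Cd81* over *Cd9*, *Cd9* over *Tspan4*, and *Tspan32* over *Tspan6*. Neighbours from *Tspan4* down to *Tspan32* and from *Tspan6* down to *Tspan15* did not differ by more than these SDs. The SDs span mice of both ages, so that the SD of *Cd53* includes its age difference. At the end of the order stood *Tspan15* with a mean of 1.62 per kb. *Cd53* ranked 13 of 28 in young mice at 8.71 ± 6.28 per kb (SD, n = 5) and 3 of 28 in old mice at 43.8 ± 15.2 per kb (SD, n = 7), behind *Cd81* and *Cd9* only. *Cd37* ranked 7 in young and 11 in old mice. These ranks describe the same difference that chose the family.

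**Figure D3:**
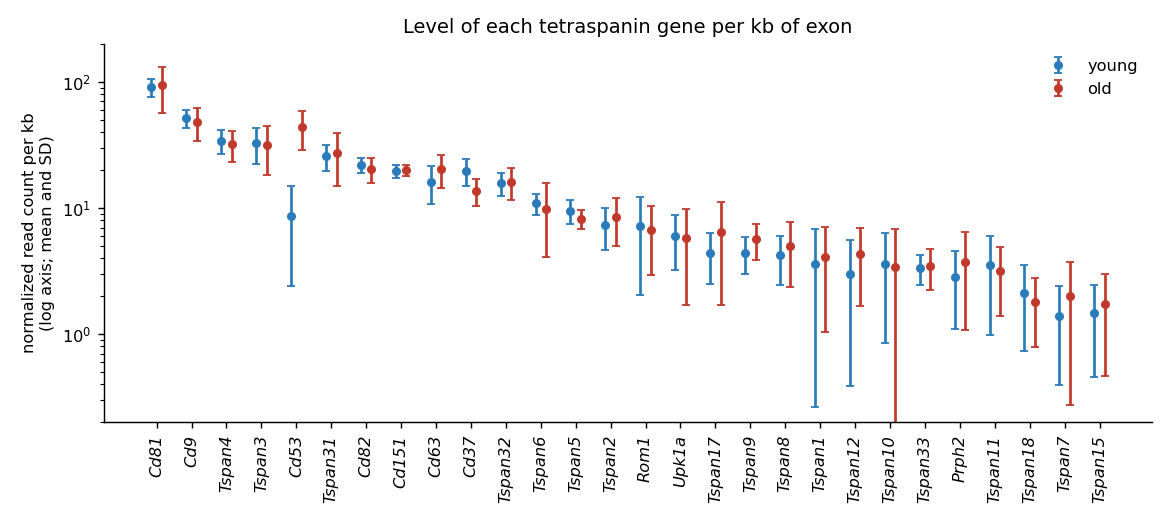
Normalized read counts per kb of exon (vertical log axis) of all 28 tetraspanin genes in young (blue) and old (red) mice, as mean and SD, ordered by the mean over all mice. The bar of *Tspan10* in old mice, whose SD exceeds its mean, runs to the lower edge of the axis. *Cd53* has means of 8.71 in young and 43.8 per kb in old mice, and *Cd81* has the highest level at both ages.

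Within each letter the comparison of ages rests on 2 young and 4 old mice (A) or 3 young and 3 old mice (B). Neither gave a call among the 22 other members, beside 0.00809% of all genes in letter A and 0.809% in letter B. Of these, 11 had the same sign in both letters, 4 of them higher and 7 lower in old mice. Medians of the log2 fold changes were -0.12 in letter A and -0.02 in letter B, against -0.03 and -0.04 over all genes tested. The largest value within a letter was the 1.17 of *Tspan12* in letter A, which was 0.03 in letter B. The difference between the letters in the effect of age was tested as an interaction, and limma called 0 of the 22, with 0 at an unadjusted p under 0.05, beside 2 of all genes (0.0162%). The quasi-likelihood test of edgeR also called 0.

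**Figure D4:**
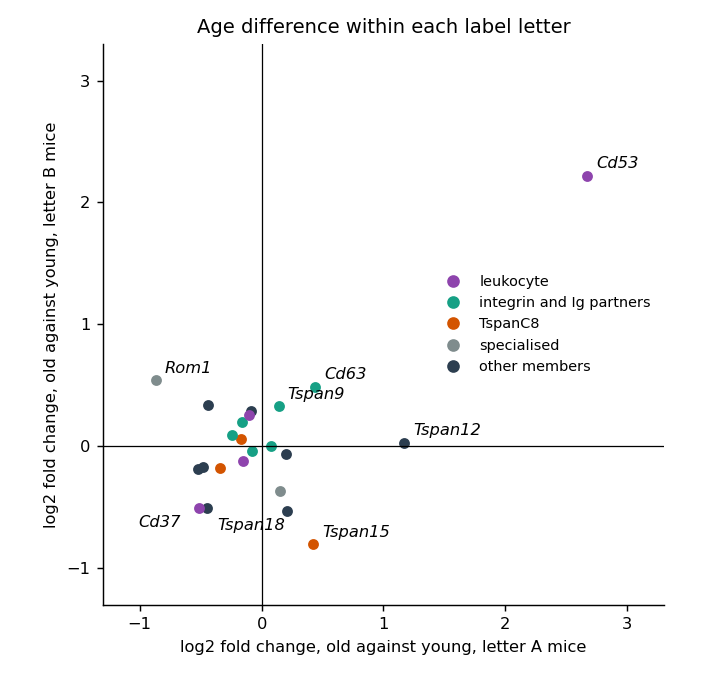
Log2 fold change of each tested member, old against young, in mice of letter A (horizontal axis) and of letter B (vertical axis), coloured by role, with some members named. *Cd53* lies at 2.67 and 2.22, apart from the other members, which spread around 0 on both axes.

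More members were called between the letters than between the ages. This comparison does not depend on the choice of the family, and it was fitted with age as a covariate. Of 23 tested members, 3 were higher in letter B, beside 10.5% of all genes tested, and 6 were lower, beside 25.6% (limma, adjusted p under 0.05). Both counts are near the background, so that they are no result about tetraspanins. *Tspan3* ran from 33.9 to 164 in letter A (median 113) and from 121 to 198 in letter B (median 183), with a log2 difference of 0.80 (standard error 0.26, limma adjusted p = 0.01915). *Cd63* had a log2 difference of 0.67 (standard error 0.21, limma adjusted p = 0.01425), and *Tspan31* of 0.65 (standard error 0.22, limma adjusted p = 0.0259). All 3 thus lay higher in letter B, which includes the deepest libraries.

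The 6 members that were lower in letter B were *Tspan15*, *Prph2*, *Tspan7*, *Tspan11*, *Tspan18* and *Tspan2*. All but *Tspan2* passed the minimum mean of 10 only through letter A, where they are high, so that their calls are partly set by that choice. *Tspan15* ran from 12.1 to 28.3 in letter A (median 18.9) and from 0.778 to 20.6 in letter B (median 5.33), with a log2 difference of -1.83 (standard error 0.50, limma adjusted p = 0.00742). *Prph2* ran from 9.04 to 22.1 in letter A (median 14.5) and from 0.778 to 7.83 in letter B (median 4.93), and its log2 difference was -1.68 (standard error 0.50, limma adjusted p = 0.0119). It was the single tested member whose letters did not overlap, as 10.5% of all genes tested did not. The others had log2 differences from -1.58 in *Tspan7* to -0.74 in *Tspan2*. For *Cd53* the letters overlapped widely, and the log2 difference was 0.25 (standard error 0.31, limma adjusted p = 0.549).

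Among the genes that passed the minimum mean, the sign went with the level. Of the 10 tested members with a mean under 30 normalized read counts, all 10 were lower in letter B, with a median log2 difference of -1.04. Of the 13 members at or above 30, 11 were higher in letter B, with a median of 0.35. The same split was seen over all genes tested, of which 86.5% were lower in letter B under a mean of 30 (median -1.03) and 69.6% were higher at or above it (median 0.21). The minimum mean of 10 was taken over all mice, which lets in low genes that are high in letter A. *Prph2*, *Rom1*, *Tspan7*, *Tspan11*, *Tspan12*, *Tspan15* and *Tspan18* passed it only through letter A, with letter B means of 4.63 to 9.90. The split under 30 thus cannot be told apart from this choice of genes, here and over all genes tested. After rescaling by median ratios the median of all genes moved from -0.09 to 0.21, the calls in letter B from 1301 higher and 3161 lower to 3360 higher and 2541 lower, and those among the members from 3 higher and 6 lower to 7 higher and 5 lower. Besides depth, the share of reads on *Gm10800*, a predicted gene, differed by letter, at 7.18 to 18.6% in letter A and 1.6 to 8.44% in letter B. The part of either in these differences was not tested.

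**Figure D5:**
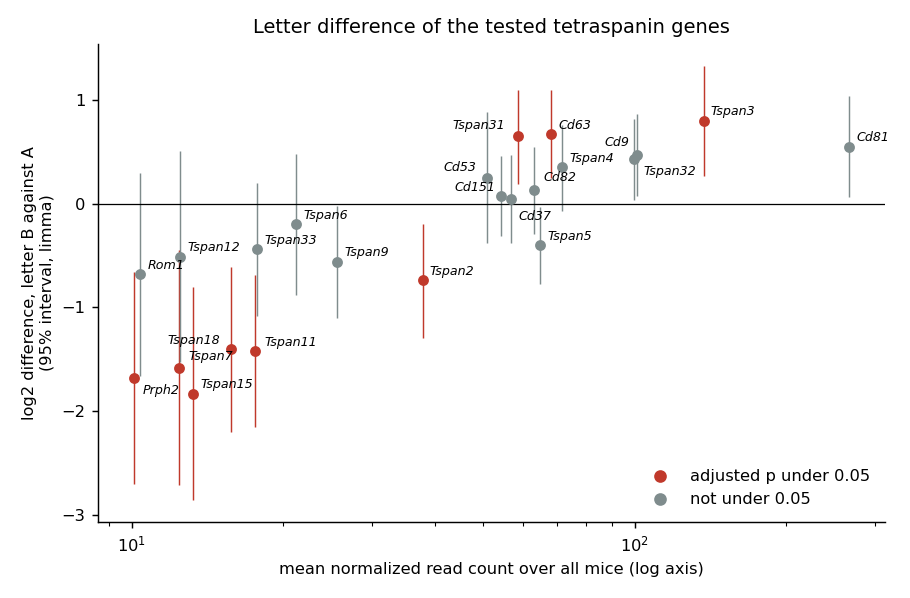
Log2 difference between mice of letter B and letter A (vertical axis, limma with 95% interval) against the mean normalized read count (horizontal log axis) for the 23 tested members, in red where the adjusted p was under 0.05. All 10 members with a mean under 30 lie under 0, and 11 of the 13 others lie above it. The minimum mean over all mice lets in low members that are high in letter A.

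Proteins that tetraspanins bind were taken as a list of 56 genes, of which 48 were in the table and 46 were tested. Between the ages limma called 0 of 46 without the letter as a covariate, beside 0.105% of all genes, and 1 with it, beside 0.299%. At an unadjusted p under 0.05 there were 3 of 46 without the letter, near the 3.95% seen over the whole table. By edgeR's quasi-likelihood test 0 were called, beside 0.146%, and DESeq2 called 1 of the 39 partner genes with an adjusted p, beside 0.633%. The 1 called gene was *Itgb3*, the integrin β3 chain of platelets and stem cells, with 106.5 ± 9.73 (SD, n = 5) for young mice and 223 ± 70.8 (SD, n = 7) for old mice. Its log2 fold change with the letter as a covariate was 1.09 (standard error 0.18). The median log2 fold change of the 46 was 0.08, with 27 positive, against a median of -0.02 and 47.7% positive over all genes tested. The integrin chains *Itga4* and *Itgb1*, known partners of CD53, CD81 and CD82, had 489 ± 105 (SD, n = 5) for young mice and 395 ± 114 (SD, n = 7) for old mice, and 261 ± 37.7 (SD, n = 5) for young mice and 245.5 ± 74.9 (SD, n = 7) for old mice. Their log2 fold changes were -0.34 (standard error 0.25) and -0.14 (standard error 0.23), within the spread.

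The receptor gene *Kit*, whose product CD9, CD63 and CD81 can bind, gave a log2 fold change of -0.21 (standard error 0.41). *Igsf8* and *Ptgfrn* encode the immunoglobulin-superfamily proteins that bind CD9 and CD81 most directly. Their normalized read counts were 29.4 ± 7.62 (SD, n = 5) for young mice and 27.3 ± 10.99 (SD, n = 7) for old mice for *Igsf8*, and 34.3 ± 25.8 (SD, n = 5) for young mice and 37.1 ± 13.4 (SD, n = 7) for old mice for *Ptgfrn*. *Ackr1*, whose product binds CD82, lay under the minimum mean, at 0.981 to 8.71 in young and 3.92 to 9.915 in old mice.

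Several members lie close together in the genome. *Tspan32* and *Cd81* on chromosome 7 are 33.1 kb apart with no other coding gene between them, and their log2 fold changes were 0.02 and -0.06. *Cd151* and *Tspan4*, on the same chromosome and 3.77 kb apart with 1 coding gene between them, had 0.02 and -0.12. *Tspan11* and *Tspan9* on chromosome 6, 7.42 kb apart, had -0.10 and 0.34, and *Tspan18* and *Cd82* on chromosome 2, 84.6 kb apart, had -0.24 and -0.15. None of these genes was called. On chromosome 3 *Cd53* is 3958 kb from *Tspan2*, the nearest member, which had 0.19.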

How the data were processed

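RNA-seq values for the LSK-SLAM cells of 5 young and 7 old animals were taken from the table the authors deposited. It holds a signal per gene and mouse, in which the authors divided reads per gene by a scaled library size. The submitters' processing notes name FastQC 0.11.8, STAR 2.5.4b, edgeR 3.24.3 and mm10. The counting tool and the annotation are not given in the sources used here. A deposited table of the authors' own comparison, with fold changes, p-values and related columns, was not used. Groups came from the sample labels, and the 2 labelled samples of a mouse were counted as 1.

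Of the values, 100% were whole multiples (tolerance 0.01) of the value of a single read in that library, so that reads were recovered. Each mouse held 861047 to 5118507 of them, and the deepest libraries have the smallest counting error. Ages were compared with limma 3.58.1 in R 4.3.3 (lmFit, eBayes with trend) on log2(value + 1) over genes with a mean of at least 10, with Benjamini-Hochberg adjustment and calls at an adjusted p under 0.05. Fold changes on this scale understate those of low genes. The letter and the interaction with age were fitted likewise. The recovered reads were also tested with edgeR 4.0.16 and DESeq2 1.42.0. The limma procedure was also run on simulated reads with an age difference in some genes and no letter difference. Its recovery rate is not given here, so this run does not tell how many changes were missed. P-values set each difference against the spread between the mice, with a variance that limma shares in part between genes. In the age fit without the letter, this spread includes any difference between the letters. Positions, exon lengths and shared words came from GENCODE vM21, where 18745 of 18762 identifiers were found. Python 3.11.15 with numpy 2.4.6, pandas 2.3.3 and matplotlib 3.10.9 was used.

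All members were named by the rule of the family, those tested with values and the others with ranges. Partner genes were named if called with or without the letter, or if among 7 listed ones. Members, role groups, partner and marker lists were chosen with earlier results of these data known. The alternatives were other pseudocounts and minimum means, no trend, the letter as a covariate, mice of 1 letter, a replicate block, median-ratio scaling, count tests and leaving out each mouse. Replicates 1 to 5 without the block and leaving out the 2 shallowest libraries were chosen after seeing the data.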

Additional observations from a re-analysis of the deposited data

Results flagged for a closer look

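Each tested tetraspanin gene was examined at each age for a mouse far from the rest, 46 groups in all, with Dixon's criterion. It marked 5 groups, whereas chance marks about 1 group in 20, here 2.3. For *Cd37*, young mouse 4 had 97.9 normalized read counts and the other young mice had 57.3 to 68.4. For *Cd53*, young mouse 5 had 34.1 and the others of its age had 6.87 to 14.1. Young mouse 2 was low for *Cd81*, with 184 where the others had 272 to 297, and high for *Tspan7*, with 22.1 where they had 4.11 to 9.02. For *Cd82*, old mouse 5 had 32.4 and the remaining old mice had 60.5 to 73.8. No explanation of these values was tested.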

How the results depend on the processing

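The count of tetraspanin genes called between the ages, *Cd53* left out, was 0 under all 27 alternatives, 2 of them chosen after seeing the data, and the lowest adjusted p of any member was 0.508, for *Cd63* in mice of letter B (limma). *Cd53* stayed between 2.08 (pseudocount of 5) and 2.72 on the log2 scale. Of the 22 other members, 7 kept their sign throughout. Single values could move by more than their standard error over all mice. *Rom1* went from -0.01 (standard error 0.55) to -0.87 in letter A. In letter B *Tspan15* went from 0.09 (standard error 0.71) to -0.80 and *Tspan3* from -0.16 (standard error 0.35) to 0.34. *Cd81* went from -0.06 (standard error 0.30) to 0.31 without the 2 shallowest libraries. Over all genes, the 13 calls became 22 at a minimum mean of 30, 2 without trend, 37 with the letter as a covariate, 1 in letter A, 100 in letter B, 5 after median ratios, 43 with edgeR and the letter, 57 with DESeq2, and 49 without the 2 shallowest libraries. Leaving out single mice gave 3 to 32, the highest without old mouse 5. The replicate block gave 19 genes, and replicates 1 to 5 without it 8. Same-numbered mice are different animals, whose deviations correlated between -0.559 and 0.615, and 2 of 5 young mice correlated best with their own number. The count of partner genes was 1 with the letter as a covariate in limma and edgeR, 1 with DESeq2, 1 without the 2 shallowest libraries, 2 in letter B (*Itgb3* and, named after its values were seen, *Itga6*), and 0 to 1 when single mice were left out, with 1 without old mouse 5. The 9 members called between the letters became 5 to 12 when single mice were left out, with 5 without young mouse 2. DESeq2 gave an adjusted p for 14 of the 22 members. The causes were not tested. Counting error is largest for the members with the fewest reads.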
